A study of Saccharomyces cerevisiae with 6 samples.

Results

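The 38 genes of the autophagy machinery of Saccharomyces cerevisiae were followed in budding yeast cultures given edelfosine, a synthetic analogue of lysophosphatidylcholine. They are the ATG genes for initiation, conjugation, lipid transfer and selective cargo, with SNX4, VPS30, VPS34 and VPS15, and were taken by systematic name, a rule that uses no measured value. All 38 had a row in the deposited table of 5917 genes, and all 38 were among the 5707 genes tested. Poly(A) RNA was sequenced from 3 cultures treated with 20 uM edelfosine for 60 minutes and 3 cultures treated for the same time with the vehicle, 0.095% ethanol. All were wild-type cells in log phase in synthetic defined medium. The first 2 cultures of each treatment were W303 and the last was BY4741, both laboratory strains, and strain cannot be told apart from anything else that set replicate 3 apart. The labels call the replicates biological. The auxotrophic markers followed the strain labels. MET17, LEU2 and URA3 were at or below 0.0868 TPM in both BY4741 libraries and at 32.9 TPM or more in the 4 W303 libraries.

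Autophagy carries cytoplasm to the vacuole inside a double-membrane vesicle, the autophagosome. The Atg1 kinase complex gathers at the vacuole and starts the vesicle, a phosphatidylinositol 3-kinase marks its membrane with PI3P, Atg9 vesicles and the lipid-transfer protein Atg2 feed it with membrane, and a pair of ubiquitin-like systems attach Atg8 to its phosphatidylethanolamine. Receptors that bind both cargo and Atg8 make the process selective. In well-fed yeast the same machinery runs the cytoplasm-to-vacuole targeting (Cvt) pathway, which delivers vacuolar hydrolases, while the nutrient-sensing kinase complex TORC1 keeps bulk autophagy low.

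The stretches of reference sequence upstream of the genes at both ends of the response are given first, because most members rose together and a few did not. Each runs 5′ to 3′ on the gene's own strand from 400 to 101 bases before the start codon, in the RefSeq R64 reference of strain S288C, matched to the deposited rows by systematic name (the deposited table holds no coordinates and names no build). Capitals mark matches to any of 4 motifs searched on both strands, namely AGGGG, the stress response element bound by Msn2 and Msn4; GGCGGC, the core of the URS1 element bound by the repressor Ume6; GATAAG, bound by GATA factors such as Gln3; and TGACTC, bound by Gcn4. The coordinates are chrXV:165314-165613 (plus strand) for ATG34, chrII:80832-81131 (minus) for ATG8, chrXII:758934-759233 (minus) for ATG39 and chrXVI:74820-75119 (minus) for ATG41. The far ends of the ATG34 and ATG8 windows lie in the neighbouring coding genes PHM7 and ILS1.
ATG34: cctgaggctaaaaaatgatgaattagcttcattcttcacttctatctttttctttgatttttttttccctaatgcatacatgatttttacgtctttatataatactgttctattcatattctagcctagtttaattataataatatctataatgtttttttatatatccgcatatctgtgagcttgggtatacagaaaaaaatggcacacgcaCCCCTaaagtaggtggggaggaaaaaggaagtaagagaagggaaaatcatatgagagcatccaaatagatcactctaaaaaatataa
ATG8: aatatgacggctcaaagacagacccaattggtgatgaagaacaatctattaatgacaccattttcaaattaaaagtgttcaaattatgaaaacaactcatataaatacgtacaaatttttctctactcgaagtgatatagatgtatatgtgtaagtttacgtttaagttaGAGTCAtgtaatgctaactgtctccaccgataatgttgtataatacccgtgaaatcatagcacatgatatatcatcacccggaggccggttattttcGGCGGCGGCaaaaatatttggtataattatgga
ATG39: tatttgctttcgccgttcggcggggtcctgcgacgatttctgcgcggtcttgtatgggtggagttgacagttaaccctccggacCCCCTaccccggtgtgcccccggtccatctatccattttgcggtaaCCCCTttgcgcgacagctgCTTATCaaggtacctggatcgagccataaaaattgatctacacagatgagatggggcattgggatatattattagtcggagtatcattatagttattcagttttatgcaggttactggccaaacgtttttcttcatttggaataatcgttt
ATG41: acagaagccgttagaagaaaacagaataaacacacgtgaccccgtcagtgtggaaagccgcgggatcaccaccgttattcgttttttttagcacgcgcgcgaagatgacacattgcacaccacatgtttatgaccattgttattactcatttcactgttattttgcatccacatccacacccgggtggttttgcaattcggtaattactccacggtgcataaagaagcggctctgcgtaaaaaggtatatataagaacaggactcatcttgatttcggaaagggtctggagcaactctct

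ATG34, the largest rise described below, had 1 AGGGG match on the reverse strand, its first base 187 bases before the start codon. ATG8 had overlapping GGCGGC matches starting 133 and 130 bases before the start codon and a TGACTC match at 230. ATG39 had AGGGG matches at 316 and 270 and a GATAAG match at 251, and ATG41, the largest fall, had no match to any of the 4 in this window. The windows of the other 3 genes with the largest changes in either direction are not printed; ATG33 had a GATAAG match at 311, the falling ATG27 an AGGGG match at 335, and ATG31 none. Over all members, AGGGG was found in 15 of 38 windows (39.5%), against 23.8% of the 5698 windows of all tested genes that had one and 35.6% of the windows of the 1557 genes called higher. GGCGGC was found in 3 members (7.89% against 6.04% of all windows), GATAAG in 5 (13.2% against 13.9%) and TGACTC in 6 (15.8% against 8.62%). In the windows of genes called higher these 3 motifs were found in 7.9, 13.6 and 7.32%. Of the 6 members with TGACTC, 4 were called higher and 2 not called. Of the 15 members with AGGGG, 10 were called higher, 1 lower and 4 not called. These are matches of letters and not bound sites.

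The deposited values were TPM, each gene's length-corrected share of all transcripts, with the same total in every library, so read depth is unknown and no counting interval can be given. Libraries were scaled by a trimmed mean of M values (TMM), and levels below are scaled TPM unless called deposited. Changes are log2 differences of scaled TPM + 1, edelfosine minus vehicle, given with the standard error (SE) of the limma fit, and a gene was called when its adjusted p over all 5707 genes was below 0.05. Changes thus stand against the bulk of genes, whose median change was 0.0088. In bulk cultures a change in every cell cannot be told apart from a larger one in some cells, and RNA per cell was not measured.

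Autophagy genes were mostly higher after edelfosine. Of the 38, 28 rose, 2 fell and 8 were not called. Over all tested genes 27.3% were called higher and 27.3% lower, against 73.7% and 5.26% of the autophagy genes. The median change was 0.84. With TPM as deposited the median gene shifted by 0.55, 2837 genes were called higher and 760 lower (against 1557 and 1557 after scaling), and 35 members were called higher and 1 lower. The 3 edelfosine libraries lay above the 3 vehicle libraries for 28 members, a pattern seen in 30.3% of all genes, and below them for 2 (31.3% of all genes). Rises of 2-fold or more were called for 17 members (14.1% of all genes) and 1 member fell by as much (15.9% of all genes). The members were chosen with earlier results of these data known, so these counts describe the set and do not test it.

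**Figure D1:**
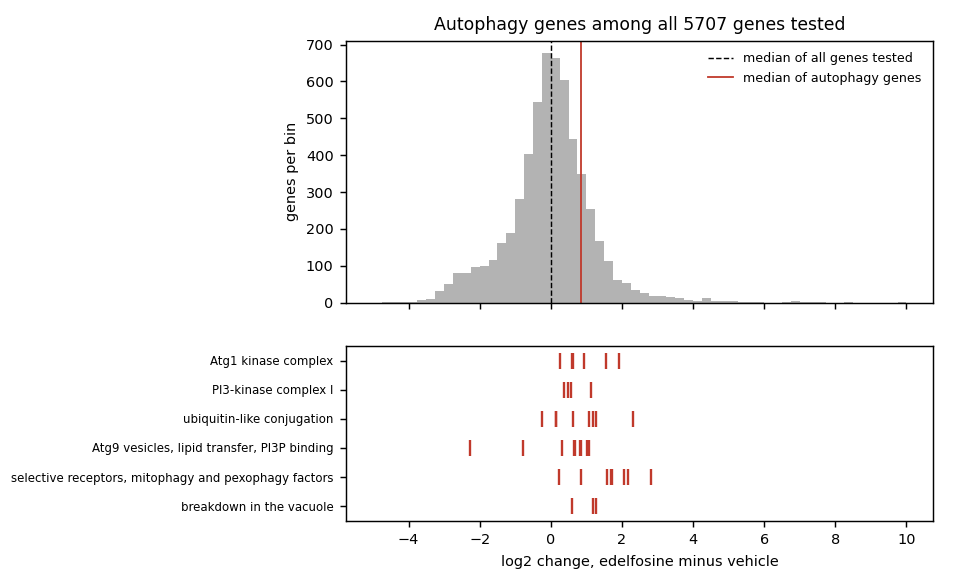
Upper panel, number of genes (y axis) by log2 change, edelfosine minus vehicle (x axis), for the 5707 genes tested, with the medians of all genes (0.0088) and of the 38 autophagy genes (0.84) as lines. Lower panel, each autophagy gene as a tick by class; the receptors reach 2.82 and only the Atg9 class extends below -0.26.

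In the deposited values the 38 genes took 0.127, 0.174 and 0.155% of all TPM in edelfosine replicates 1 to 3, against 0.0573, 0.0488 and 0.0613% in the vehicle replicates. After scaling, their sum was 1229 ± 192 in edelfosine and 686 ± 3.77 in vehicle libraries (SD, n = 3 each). Edelfosine replicate 1 stood lowest of its group for 31 of the 38 members (81.6%), while it was lowest for 40.3% of all tested genes. Without it 31 members were called higher and 2 lower, and over all genes 1682 were higher and 1674 lower, of 5645. Vehicle replicate 3, of strain BY4741, was highest of its group for 23 members (60.5%, against 36.2% of all genes). The counts also moved with replicate 2. Without vehicle replicate 2, 19 members were called higher and 1 lower, and without replicate 2 of both treatments 18 and 1. Calls over all genes fell too, to 1084 higher and 1098 lower of 5698 without vehicle replicate 2 and to 987 and 1038 of 5620 without both. In every single-library omission, 18 of the 28 rises and the fall of ATG41 were called. Leaving out either replicate 3 library left 1 BY4741 culture, which the strain term fitted exactly. Both omissions therefore compared the treatments in W303 alone. Calls lost below without edelfosine replicate 3 and without vehicle replicate 3 are thus not separate dependences on those libraries.

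**Figure D2:**
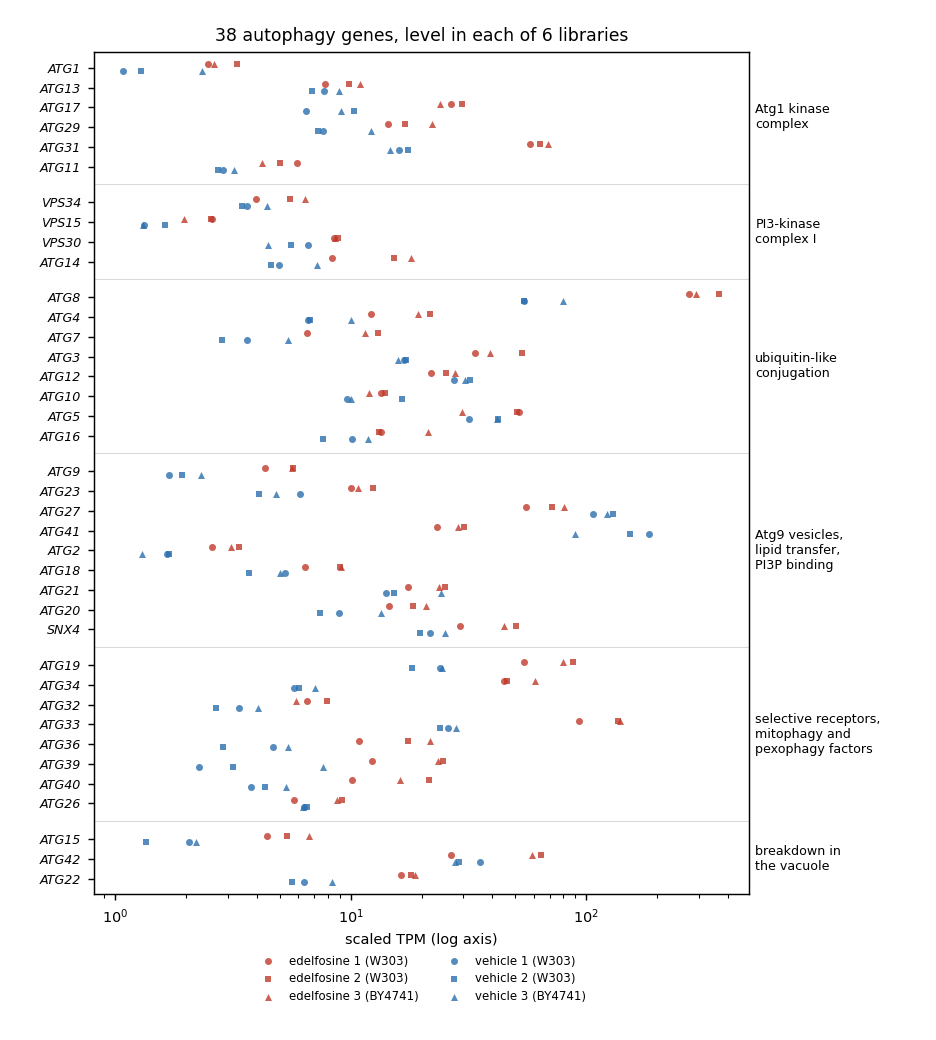
Scaled TPM (x axis, log scale) of each of the 38 genes (rows, by class) in each library; red marks edelfosine, blue vehicle, and the shape gives the replicate and its strain. Edelfosine libraries lie to the right for most genes, and to the left for ATG27 and ATG41.

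In the Atg1 kinase complex class 5 of 6 genes rose, with a median of 0.77, led by genes for the scaffold that gathers Atg1 at the start of bulk autophagy. ATG31 (YDR022C), a subunit of that scaffold, had 57.6, 63.4 and 68.9 scaled TPM in edelfosine replicates 1 to 3, against 16.0, 17.4 and 14.7 in vehicle replicates. The lowest edelfosine library lay more than 3 times above the highest vehicle library. Its change was 1.92 ± 0.15 (adjusted p = 0.000493, limma). ATG17 (YLR423C), the central scaffold protein, had 26.6, 29.8 and 24.0 scaled TPM in edelfosine libraries and 6.45, 10.3 and 9.09 in vehicle libraries, a change of 1.55 ± 0.20 (adjusted p = 0.00163, limma). ATG29 (YPL166W), the remaining scaffold subunit, rose by 0.92 ± 0.14 (adjusted p = 0.00278, limma). ATG29 overlaps SET6 on the opposite strand in R64 and strand-specific counting is not stated, so reads from the shared stretch cannot be told apart. No other member overlapped another gene.

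ATG1 (YGL180W) itself, the protein kinase of the complex, was scarce. It had 2.49, 3.31 and 2.63 scaled TPM in edelfosine libraries and 1.08, 1.28 and 2.33 in vehicle libraries. The groups were close, with the BY4741 vehicle culture almost as high as the lowest edelfosine culture. The change was 0.60 ± 0.19 (adjusted p = 0.0393, limma), and that call was lost without edelfosine replicate 2 (0.0826), vehicle replicate 1 (0.140) or vehicle replicate 2 (0.133). ATG11 (YPR049C), the scaffold that replaces Atg17 in selective autophagy and binds the receptors, had 5.93, 5.002 and 4.22 scaled TPM in edelfosine libraries and 2.88, 2.74 and 3.18 in vehicle libraries. All 3 edelfosine values were higher, and the rise of 0.61 ± 0.16 (adjusted p = 0.0166, limma) was lost without vehicle replicate 1 (0.0701) or 2 (0.0799). ATG13 (YPR185W), the regulatory subunit through which TORC1 restrains Atg1, had a change of 0.24 ± 0.15 (95% interval -0.12 to 0.61; adjusted p = 0.206, limma). With TPM as deposited ATG13 was called higher (0.79; adjusted p = 0.0115, limma).

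Of the 4 genes of phosphatidylinositol 3-kinase complex I, 3 rose, and the median change of the class was 0.52. ATG14 (YBR128C), the subunit that directs the kinase to the forming autophagosome, had 8.35, 15.3 and 18.0 scaled TPM in edelfosine libraries and 4.97, 4.60 and 7.22 in vehicle libraries. Its 3 edelfosine values were all higher but spread about 2-fold, and the change was 1.13 ± 0.22 (adjusted p = 0.0065, limma). VPS30 (YPL120W), the yeast relative of Beclin, had 8.47, 8.84 and 8.60 scaled TPM with edelfosine and 6.56, 5.61 and 4.45 with vehicle. The edelfosine cultures were tightly grouped above the vehicle cultures, with a change of 0.57 ± 0.15 (adjusted p = 0.0189, limma). The call was lost without edelfosine replicate 3 (0.0876), vehicle replicate 2 (0.0830) or vehicle replicate 3 (0.109). VPS15 (YBR097W), the regulatory subunit, was the scarcest of all members under both treatments, at 2.36 ± 0.351 scaled TPM with edelfosine and 1.42 ± 0.177 with vehicle (SD, n = 3 each). It rose by 0.47 ± 0.13 (adjusted p = 0.0227, limma), a call lost without vehicle replicate 1 (0.0800), 2 (0.0639) or 3 (0.0545). VPS34 (YLR240W), the catalytic subunit, changed by 0.37 ± 0.16 (95% interval -0.01 to 0.74; adjusted p = 0.0903, limma). It was called higher without edelfosine replicate 1 (0.49; 0.0212) and with TPM as deposited (0.86; 0.00690). Complex I shares Vps34, Vps15 and Vps30 with an endosomal complex, whereas Atg14 belongs to the autophagy complex alone.

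In the ubiquitin-like systems, 5 of 8 genes rose, with a class median of 0.85. They were ATG8, the 3 genes whose products act on Atg8 directly, and ATG16. ATG8 (YBL078C), the protein that ends up on the autophagosome membrane, had 273, 366 and 294 scaled TPM in edelfosine libraries and 54.5, 54.4 and 79.7 in vehicle libraries. No vehicle value came near the edelfosine values, and the change was 2.30 ± 0.21 (adjusted p = 0.000672, limma), a 4.95-fold ratio of means. ATG8 was the most abundant member after edelfosine and the third with vehicle, behind ATG41 (YPL250C) and ATG27 (YJL178C).

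The enzymes that process Atg8 and load it onto lipid were also called higher. ATG3 (YNR007C), its E2-like conjugating enzyme, had 33.8, 53.4 and 39.0 scaled TPM with edelfosine and 16.9, 17.1 and 15.8 with vehicle (1.27 ± 0.20; adjusted p = 0.0028, limma). The ATG3 vehicle libraries were nearly equal, and each edelfosine library was well above them. ATG7 (YHR171W), the E1-like enzyme that activates both Atg8 and Atg12, had 6.52, 13.1 and 11.5 scaled TPM with edelfosine and 3.65, 2.84 and 5.39 with vehicle. Its groups did not overlap, although edelfosine replicate 1 was close to the BY4741 vehicle library. The ATG7 change was 1.18 ± 0.26 (adjusted p = 0.00922, limma), and the call was lost without vehicle replicate 2 (0.0545). ATG4 (YNL223W), the protease that trims Atg8 before conjugation and frees it afterwards, had 12.2, 21.7 and 19.3 scaled TPM with edelfosine and 6.61, 6.72 and 9.99 with vehicle. All edelfosine values were higher, with a change of 1.08 ± 0.23 (adjusted p = 0.00778, limma). Within libraries the ratio of ATG8 to ATG4 was 22.3, 16.9 and 15.2 with edelfosine and 8.25, 8.10 and 7.98 with vehicle. ATG8 RNA was thus higher relative to ATG4 in every edelfosine library than in any vehicle library.

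The genes of the Atg12 branch were mostly not called. ATG12 (YBR217W), the other ubiquitin-like protein, had 22.0, 25.5 and 27.7 scaled TPM with edelfosine and 27.6, 32.1 and 30.5 with vehicle, so the groups touched. Its change was -0.26 ± 0.15 (95% interval -0.62 to 0.11; adjusted p = 0.192, limma), and with TPM as deposited it turned to 0.33 without being called (0.128). ATG10 (YLL042C), the E2-like enzyme for Atg12, changed by 0.14 ± 0.21 (95% interval -0.36 to 0.65; adjusted p = 0.586, limma), and ATG5 (YPL149W), the protein that accepts Atg12, by 0.16 ± 0.24 (95% interval -0.43 to 0.74; adjusted p = 0.607, limma). ATG5 was at 51.9 and 51.0 scaled TPM in the W303 edelfosine libraries and 29.6 in the BY4741 one, against 31.7 and 42.2 in the W303 vehicle libraries and 41.9 in the BY4741 one. With TPM as deposited ATG10 (0.71; adjusted p = 0.0191, limma) and ATG5 (0.75; 0.0416) were called higher. ATG16 (YMR159C), which binds Atg5 and completes the complex, rose by 0.63 ± 0.16 (adjusted p = 0.017, limma). The ATG16 call was lost without edelfosine replicate 3 (0.0789), vehicle replicate 2 (0.0827) or vehicle replicate 3 (0.0938). A ratio of genes within a library does not depend on the scaling. That of ATG8 to ATG12 was 12.4, 14.4 and 10.6 in edelfosine libraries and 1.98, 1.70 and 2.61 in vehicle libraries. It was thus higher in every edelfosine library than in any vehicle library.

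The class of Atg9 vesicles, lipid transfer and PI3P-binding proteins held both falls, beside 6 rises and 1 gene not called. Its summed level was lower with edelfosine, at 206 ± 36.7 scaled TPM against 325 ± 32.8 with vehicle (SD, n = 3 each), although the median change of its 9 genes was 0.69. The vehicle sum was led by ATG41 and ATG27, and the edelfosine sum by ATG27 and SNX4 (YJL036W). ATG41, also named ICY2, encodes a small protein that interacts with Atg9. It had 23.3, 30.1 and 28.7 scaled TPM in edelfosine libraries and 184, 154 and 89.3 in vehicle libraries. It was the most abundant member with vehicle and ranked 11 of 38 with edelfosine. The change was -2.28 ± 0.25 (adjusted p = 0.00111, limma), and the BY4741 vehicle library was the lowest of its group. ATG27, a transmembrane protein of Atg9 traffic, had 55.3, 71.7 and 80.8 scaled TPM with edelfosine and 106.8, 129.6 and 122.6 with vehicle. Every edelfosine value was lower, and the change was -0.79 ± 0.18 (adjusted p = 0.0114, limma). That call was lost without vehicle replicate 2 (0.0538) and with TPM as deposited (-0.19; adjusted p = 0.370).

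ATG9 (YDL149W) itself, the lipid scramblase of the vesicles, rose from a low level. It had 4.33, 5.70 and 5.64 scaled TPM with edelfosine and 1.69, 1.92 and 2.33 with vehicle. The groups were well apart, and the change was 1.06 ± 0.15 (adjusted p = 0.00194, limma). ATG23 (YLR431C), a peripheral protein that moves with Atg9, had 10.1, 12.5 and 10.8 scaled TPM with edelfosine and 6.09, 4.09 and 4.83 with vehicle (1.02 ± 0.18; adjusted p = 0.00419, limma). Among the proteins that travel with Atg9, the RNA of ATG23 was thus higher and those of ATG27 and ATG41 lower, the fall of ATG27 being lost with TPM as deposited. Within libraries the ratio of ATG41 to ATG9 was 5.39, 5.29 and 5.08 with edelfosine and 109, 80.4 and 38.4 with vehicle.

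ATG2 (YNL242W), the lipid-transfer protein that bridges the endoplasmic reticulum and the growing membrane, rose by 0.65 ± 0.15 (adjusted p = 0.0103, limma) and ATG18 (YFR021W), which binds PI3P and recruits Atg2, by 0.69 ± 0.19 (adjusted p = 0.0214, limma). The ATG2 call was lost without vehicle replicate 3 (0.0588). The ATG18 call was lost without edelfosine replicate 3 (0.0669), vehicle replicate 2 (0.0989) or vehicle replicate 3 (0.0910). ATG21 (YPL100W), a related PI3P-binding protein, changed by 0.32 ± 0.20 (95% interval -0.17 to 0.80; adjusted p = 0.222, limma) and was called higher with TPM as deposited (0.89; 0.0143). The sorting nexin genes ATG20 (YDL113C) and SNX4, whose products form a pair that sorts endosomal membrane, rose by 0.82 ± 0.17 and 0.85 ± 0.22 (adjusted p = 0.00767 and 0.0181, limma). The ATG20 call was lost without replicate 2 of both treatments (0.0651). That of SNX4 was lost without edelfosine replicate 3 (0.0501) and without vehicle replicate 1 (0.0650), 2 (0.0806) or 3 (0.0689).

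The class of selective receptors and organelle-specific factors had the highest median change of the 6 classes (1.70), with 7 of 8 genes higher. The classes were not tested against each other. ATG34 (YOL083W) had 44.8, 46.2 and 60.9 scaled TPM in edelfosine libraries and 5.73, 6.05 and 7.07 in vehicle libraries. Both groups were tight and far apart, with the largest change of all members at 2.82 ± 0.14 (adjusted p = 0.000125, limma), an 8.05-fold ratio of means. Atg34 is the receptor that carries alpha-mannosidase during starvation. Its neighbour and paralogue ATG19 (YOL082W), the receptor for Cvt cargo in growing cells, had 54.6, 88.0 and 80.1 scaled TPM with edelfosine and 23.8, 18.2 and 24.3 with vehicle, and rose by 1.68 ± 0.22 (adjusted p = 0.00163, limma). The coding sequences of the pair were identical at 61.4% of 1121 aligned bases in R64. Within libraries the ratio of ATG34 to ATG19 was 0.819, 0.525 and 0.760 with edelfosine and 0.240, 0.332 and 0.291 with vehicle, without overlap.

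Genes for degradation of mitochondria and peroxisomes rose as well. ATG33 (YLR356W), an outer-membrane protein needed for mitophagy, had 93.3, 136.6 and 138.9 scaled TPM with edelfosine and 25.9, 23.9 and 27.9 with vehicle. The vehicle libraries were nearly equal and all edelfosine libraries more than 3 times as high, with a change of 2.18 ± 0.19 (adjusted p = 0.000598, limma). ATG32 (YIL146C), the mitophagy receptor, lay lower, at 6.51, 7.91 and 5.87 scaled TPM with edelfosine and 3.35, 2.69 and 4.03 with vehicle. Its rise of 0.84 ± 0.18 (adjusted p = 0.00935, limma) was lost without vehicle replicate 2 (0.0510). ATG36 (YJL185C), the receptor for peroxisomes, had 10.9, 17.6 and 21.6 scaled TPM with edelfosine and 4.70, 2.88 and 5.44 with vehicle, a change of 1.71 ± 0.23 (adjusted p = 0.00184, limma). Edelfosine replicate 1 was the lowest of the treated cultures for ATG33 and ATG36 and still above every vehicle culture.

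Both receptors for the endoplasmic reticulum were called higher. ATG39 (YLR312C), which serves the perinuclear part and the nuclear envelope, had 12.4, 24.6 and 23.6 scaled TPM with edelfosine and 2.27, 3.17 and 7.67 with vehicle (2.05 ± 0.30; adjusted p = 0.00235, limma). Its vehicle libraries differed by more than 3-fold, with BY4741 the highest. ATG40 (YOR152C), for the cortical and cytoplasmic endoplasmic reticulum, had 10.2, 21.5 and 16.1 scaled TPM with edelfosine and 3.77, 4.31 and 5.29 with vehicle (1.59 ± 0.27; adjusted p = 0.00371, limma). ATG26 (YLR189C), a sterol glucosyltransferase that Pichia pastoris uses for pexophagy, changed by 0.24 ± 0.19 (95% interval -0.22 to 0.71; adjusted p = 0.323, limma). ATG26 was called higher without edelfosine replicate 1 (0.44; 0.0311) and with TPM as deposited (0.77; 0.0174).

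**Figure D3:**
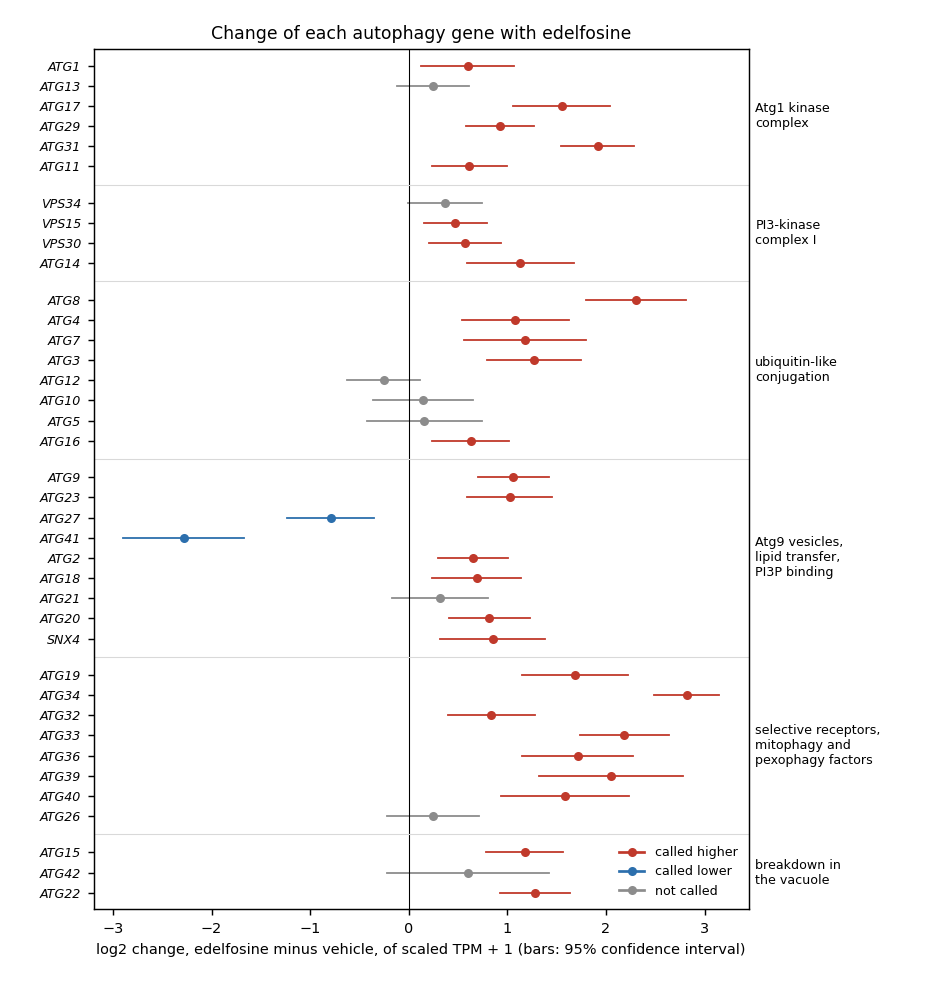
Log2 change of scaled TPM + 1, edelfosine minus vehicle (x axis), of each of the 38 genes (rows, by class), with its 95% confidence interval from the limma fit; red marks genes called higher, blue lower and grey not called. ATG34 (2.82) and ATG8 (2.30) rose most and ATG41 (-2.28) fell most; with TPM as deposited ATG27 was not called.

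Of 3 genes for breakdown and recycling in the vacuole, ATG15 (YCR068W) and ATG22 (YCL038C) rose, and the class median was 1.17. ATG22, a transporter that returns amino acids to the cytosol, had 16.4, 18.0 and 18.7 scaled TPM with edelfosine and 6.35, 5.65 and 8.31 with vehicle (1.28 ± 0.15; adjusted p = 0.00115, limma). ATG15, the lipase that opens the inner vesicle, had 4.40, 5.38 and 6.65 scaled TPM with edelfosine and 2.05, 1.35 and 2.20 with vehicle (1.17 ± 0.16; adjusted p = 0.00186, limma). Neither gene's groups overlapped. ATG42 (YBR139W), a carboxypeptidase, had 26.8, 64.04 and 59.1 scaled TPM with edelfosine and 35.4, 28.8 and 27.7 with vehicle. Edelfosine replicate 1 lay below every vehicle library for ATG42 and edelfosine replicates 2 and 3 above them. The gene was not called (0.60 ± 0.34; adjusted p = 0.179, limma). ATG42 was called higher without edelfosine replicate 1 (1.02; 0.0016) and with TPM as deposited (1.19; 0.0164).

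By level, the highest members with edelfosine were ATG8 (311 ± 49.0 scaled TPM), ATG33 (123 ± 25.7) and ATG19 (74.3 ± 17.4), and with vehicle ATG41 (142 ± 48.5), ATG27 (119.7 ± 11.7) and ATG8 (62.9 ± 14.6; SD, n = 3 each). Of these, ATG27 and ATG41 did not differ with vehicle by more than the spread of ATG41. At the lower end were VPS15, ATG1 and ATG2 under both treatments, at 2.36 to 3.02 scaled TPM with edelfosine and 1.42 to 1.56 with vehicle, and these did not differ with vehicle beyond their spread. Such low genes are the ones whose change the added 1 TPM understates. With 0.1 TPM added in place of 1 the change of ATG1 was 0.87, that of VPS15 0.69 and that of ATG2 0.92.

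None of the 38 members was called between the strains in the limma fit with treatment as a term (0.421% of all genes were called), and 4 had an unadjusted p below 0.05 (659 of all genes). These were ATG29, ATG16, ATG20 and ATG39, at 0.56, 0.52, 0.50 and 0.82 higher in BY4741 (log2; adjusted p = 0.245 to 0.403, limma). The response to edelfosine was called different between strains for 0 of 38 members and 0 of all genes tested (0%), with 176 of all genes and 1 member at an unadjusted p below 0.05 in the limma fit. That member was ATG41, its fall being smaller in BY4741 by 1.02 ± 0.40 (adjusted p = 1.00, limma). Each treatment held 1 BY4741 culture. In W303 alone, without replicate 3, 23 members were called higher and 2 lower, of 37 that passed the filter on low values. Over all genes 1166 were then called higher and 1173 lower, of 5583.

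The largest changes among 48 further genes of the pathway, in 5 lists, were in the cargo of the Cvt pathway and the vacuolar proteases, where 5 of 6 rose (27.3% of all genes did) and the median change was 1.85. AMS1, the alpha-mannosidase carried by Atg34 and Atg19, had 46.5, 64.4 and 44.6 scaled TPM with edelfosine and 4.36, 4.41 and 3.17 with vehicle. Its change was 3.40 ± 0.17 (adjusted p = 0.000128, limma). APE1, the aminopeptidase that is the main Cvt cargo, rose by 1.93 ± 0.23 (adjusted p = 0.00129, limma). PRB1 and PEP4, the proteases that break down vacuolar contents, rose by 2.56 ± 0.19 and 1.78 ± 0.20 (adjusted p = 0.00035 and 0.00106, limma). LAP3, of the same list, was not called (0.28 ± 0.19; adjusted p = 0.248, limma), and its groups overlapped. With TPM as deposited LAP3 was called higher (0.88; 0.0112). The RNAs of AMS1, APE1, ATG34, ATG19, PRB1 and PEP4 were thus higher in the same cultures, which was not shown for every gene of the list.

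In a list of 7 other partners of the pathway 3 rose (42.9%, against 27.3% of all genes), with a median of 0.40. ATG38, a subunit of the PI3-kinase complex, rose by 0.95 ± 0.15 (adjusted p = 0.00307, limma) and VPS13, a lipid-transfer protein related to Atg2, by 0.77 ± 0.13 (adjusted p = 0.00356, limma). NVJ1, which joins nucleus and vacuole, rose by 0.61 ± 0.19 (adjusted p = 0.0327, limma), a call lost without any library other than edelfosine replicate 1 (adjusted p from 0.0594 to 0.124). Of 13 genes for tethering and fusion with the vacuole, 4 were called higher (30.8%, against 27.3% of all genes) and 1 lower, with a median of 0.29. The SNARE genes VTI1 and VAM3 rose by 0.79 ± 0.19 and 0.57 ± 0.16 (adjusted p = 0.0137 and 0.0206, limma). The VTI1 call was lost without vehicle replicate 2 (0.0639) or 3 (0.0603) and the VAM3 call without vehicle replicate 1 (0.0796) or 2 (0.0889). MON1, part of the exchange factor for Ypt7, rose by 0.42 ± 0.14 (adjusted p = 0.0430, limma) and was not called without edelfosine replicate 3 or any vehicle library (0.0728 to 0.176). The remaining rise was VAM7, a SNARE (0.43 ± 0.15; adjusted p = 0.0495, limma), named after its values were seen. Its call was lost with median-of-ratios scaling (0.0534) and without any single library other than edelfosine replicate 2 (0.0635 to 0.191). YPT7, the Rab GTPase of vacuole fusion, fell by 0.68 ± 0.19 (adjusted p = 0.0228, limma). Its call was lost without edelfosine replicate 1 (0.0517) or 3 (0.0680), without vehicle replicate 2 (0.0773) or 3 (0.0576), and with TPM as deposited (-0.07; 0.733).

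Among 11 genes for transcriptional and signalling control of autophagy 2 rose (18.2%, against 27.3% of all genes) and 0 fell in the limma fit. At an unadjusted p below 0.05 were 4 of them and 3468 of the 5707 genes tested, and the list's median was 0.03. RPH1, a repressor of ATG genes, rose by 0.90 ± 0.17 (adjusted p = 0.00487, limma). RIM15, a kinase of the starvation response, rose by 0.49 ± 0.15 (adjusted p = 0.0309, limma), a call lost without any library other than edelfosine replicate 1 (adjusted p from 0.0605 to 0.118). Also at an unadjusted p below 0.05, but not called, were SNF1 (0.48 ± 0.19; adjusted p = 0.0739, limma) and GCN4 (-0.67 ± 0.26; 0.0630). Without edelfosine replicate 1, GCN4 was called lower (-0.94; 0.00934) and SNF1 higher (0.62; 0.0162). In the list of TORC1 and its upstream EGO and SEACIT complexes 2 of 11 rose (18.2%) and 0 fell in the limma fit. Again 4 were at an unadjusted p below 0.05, and the median was 0.13. All edelfosine libraries lay above all vehicle libraries for 5 of the 11 (45.5%, against 30.3% of all genes) and below them for 0. SLM4 (0.43 ± 0.15; adjusted p = 0.0517, limma) and TCO89 (0.41 ± 0.15; 0.0524) were just short of a call. They were called higher in 5 of 19 and 3 of 18 alternatives. NPR2, a subunit of SEACIT, which restrains TORC1, rose by 0.48 ± 0.13 (adjusted p = 0.0204, limma), and GTR2, a Rag GTPase of EGO, by 0.55 ± 0.18 (adjusted p = 0.0397, limma). The NPR2 call was lost without edelfosine replicate 3 or any vehicle library (adjusted p from 0.0620 to 0.0800), and that of GTR2 without any library other than edelfosine replicate 1 (0.0689 to 0.148). These counts depended on the scaling. With TPM as deposited 8 of 11 regulators and 8 of 11 genes of TORC1, EGO and SEACIT were called higher. So were 12 of 13 tethering and fusion genes, 6 of 7 other partners and 6 of 6 cargo and protease genes. In each list 0 were called lower. Over all genes 2837 of 5707 were then called higher and 760 lower, and the median gene shifted by 0.55. The medians of the TORC1, EGO and SEACIT list (0.57) and of the regulators (0.59) were close to that shift. Those of the remaining lists were higher.

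**Figure D4:**
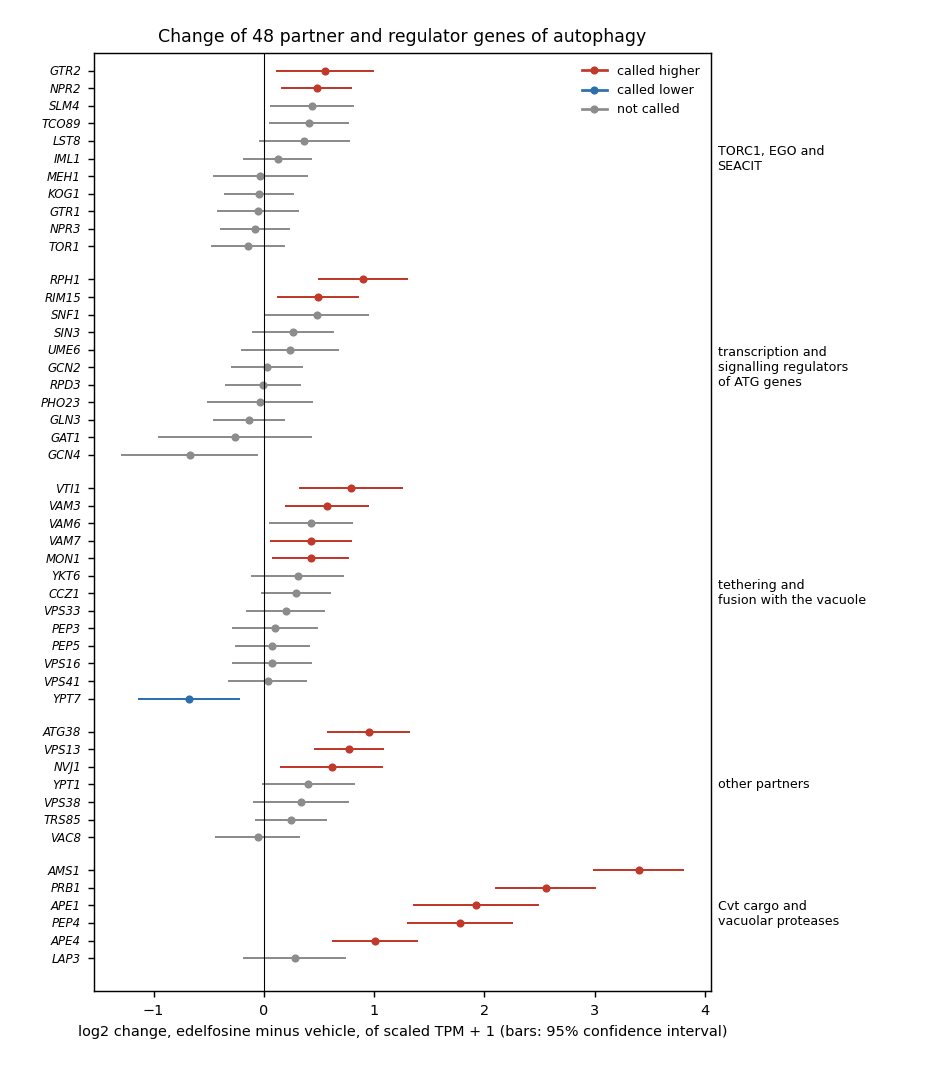
Log2 change of scaled TPM + 1, edelfosine minus vehicle (x axis), of 48 further genes of the pathway (rows, by list), with 95% confidence intervals from the limma fit; red marks genes called higher, blue lower and grey not called. AMS1 (3.40) and PRB1 (2.56) rose most, and YPT7 fell, a call lost with TPM as deposited.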

How the data were processed

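RNA of 3 edelfosine and 3 vehicle cultures was analysed from 1 table of TPM that the authors deposited, with 1 column per library. Per the submitters' processing notes kallisto and sleuth were used, with no version given. Which transcripts and genome build they used is not stated in the sources used here. The table's name speaks of read counts, but its values are not whole and every library sums to 1000000, so they were taken as TPM and depth is unknown. Genes below 1 TPM in more than 3 libraries were left out, and 5707 of 5917 were tested.

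Scaling was by an unweighted TMM that dropped the outer 30% of M values and 5% of A values on either side. Its factors were 1.20 to 1.25 for edelfosine and 0.715 to 0.891 for vehicle libraries. The model, limma 3.58.1 run in R 4.3.3, took log2 of scaled TPM plus 1, with strain and treatment as terms, a mean-variance trend and Benjamini-Hochberg adjustment over all genes tested. The interaction was fitted separately. Names came from RefSeq R64, which matched 38 of 38 members and 5911 of 5917 rows. Promoter windows came from the same reference; protein sequences were not used here.

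The members, lists and tests were chosen with earlier results of these data known. Values in every library are given for called members changed by 1 or more, the 2 largest changes in each class, and ATG1, ATG8, ATG9 and ATG11; of each further list, up to 4 called genes with the smallest adjusted p are named. The ratios between genes, and the values in every library of ATG5, ATG12, ATG27, ATG32 and ATG42, were picked after they were seen. So were the changes given for GCN4, SNF1, SLM4, TCO89 and LAP3, which were not called. Alternatives changed the scaling, pseudocount, filter, terms, variance prior and libraries.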

Additional observations from a re-analysis of the deposited data

How the results depend on the processing

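Of 30 called members, 19 were called without each single library in turn, 18 of them higher, and 16 under all 19 alternatives. ATG9 and ATG15 were called under each alternative that tested them, the 10 TPM filter having left them out, and 0 members changed sign with a call. With TPM as deposited 1 member was lower, the members' median was 1.41, and the class medians were 1.28 (Atg1), 0.98 (PI3-kinase), 1.41 (conjugation), 1.20 (Atg9), 2.25 (receptors) and 1.62 (vacuole). GTR1 (0.54), MEH1 (0.57), RPD3 (0.59) and PHO23 (0.56), which were just below 0 and not called after scaling, were then called higher. With 5 TPM added the medians were 0.58 for members, 0.52 for Atg1, 0.30 for PI3-kinase, 0.62 for conjugation and 0.61 for vacuole, and with 0.1 TPM added 0.67 for PI3-kinase. Among members with at least 10 TPM in 3 libraries, 26 were left, 19 higher and 2 lower, with medians of 1.55 (Atg1), 0.85 (PI3-kinase) and 0.62 (conjugation). Of the 4066 genes left by that filter, 1239 were higher and 1216 lower. The cause of these shifts was not tested.

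Leaving out 1 library, or 1 replicate of both treatments, gave 18 to 31 members higher and 1 to 2 lower. Over all genes 987 to 1682 were then called higher and 1038 to 1674 lower, of 5583 to 5702 tested. The medians ranged from 0.64 to 1.03 for members, 0.71 to 0.99 for Atg1, 0.49 to 0.61 for PI3-kinase, 0.72 to 1.00 for conjugation, 0.62 to 0.91 for Atg9, 1.44 to 2.00 for receptors and 1.06 to 1.31 for vacuole. In fits without replicate 3 of both treatments ATG1 did not pass the filter. Where only 1 BY4741 library was left, the strain term fitted it exactly, so the treatment change rested on the W303 libraries alone. With the replicate number as a block in place of strain, 28 members were higher and 2 lower, and 0 member calls changed. Of all 5707 genes, 1488 were higher and 1529 lower in that fit. The partners GTR2 (adjusted p = 0.0554, limma), MON1 (0.0631) and VAM7 (0.0546) lost their calls. Deviations of same-numbered libraries correlated at 0.33, 0.052 and 0.51, and one pair was thus below the 0.1 asked of every pair, so the numbers were not taken to pair cultures. As a hint towards pairing, 5 of 6 libraries correlated best with their own number. Without a strain term ATG16 (0.0635) was not called. Depth is unknown and limits the genes near 1 TPM most. The alternatives for the partner genes, and the scalings of the strain and interaction tests, under each of which 0 members were called, were added after the data were seen.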
